A study of Mus musculus and Rattus norvegicus with 37 samples.

Results

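The hepatic expression of 10 clock output genes was examined in 37 livers, 21 from mice and 16 from rats. The genes were chosen by name: the Period genes Per1, Per2 and Per3, the cryptochromes Cry1 and Cry2, the PAR bZip factors Dbp, Tef and Hlf, and the repressors Ciart and Bhlhe41. All 10 were found once in each of the 4 RNA-seq tables, which list 47929 singly named genes for mouse and 28026 for rat. The circadian clock is a feedback loop in which CLOCK (or its relative NPAS2) pairs with BMAL1, the product of Arntl, and switches on genes through E-box elements. Period and cryptochrome proteins accumulate, enter the nucleus and repress that pair, which closes the loop. DBP, TEF and HLF bind D-box elements and carry the rhythm to genes of hepatic detoxification and lipid metabolism, so that in liver these transcripts rise and fall widely over the day.

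The mice were female on a C57BL/6J background. LNA29 is a mixture of locked nucleic acid inhibitors against miR-29a and against miR-29b and miR-29c, given by 1 subcutaneous injection at 20 mg/kg each, and the controls received saline rather than a scrambled LNA. Livers were taken from fed animals on day 7. The LNA29-treated WT/Floxed group held 8 mice (4 WT and 4 floxed) and its saline group held 5 (3 WT and 2 floxed, after the authors excluded 1 floxed mouse). WT mice were 9 to 11 weeks old, and mice with the floxed Sirt1 allele were 15 to 20 weeks old, so that background and age cannot be told apart. L-Sirt1 KO mice, littermates of the floxed mice that lack Sirt1 in liver, were 15 to 20 weeks old (n = 4 with LNA29 and n = 4 with saline). The rats were male and fed. Zucker Fatty rats (ZFR), which are obese fa/fa animals, and Zucker Lean rats (ZLR) were 5.5 months old (n = 4 each), whereas the ZFR given BT2 (20 mg/kg by daily intraperitoneal injection for 1 week, in DMSO) or vehicle were 3 months old (n = 4 each). BT2 is a chlorinated benzothiophene carboxylic acid. The injections were given at Zeitgeber time 3, and the hour at which each liver was collected is not given in the sources used here. As these transcripts are rhythmic, this limits each comparison, and the part of the hour in the differences between groups, and between livers of 1 group, was not tested.

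Values are normalized counts, which were scaled by the authors separately in each of the 4 tables. The mouse libraries held an estimated 42.6 to 78 M reads, where 1 read was worth 0.746 to 1.37 normalized counts. The rat libraries ranged from 0.188 to 58.5 M. ZLR replicates 3 and 4 and ZFR vehicle replicate 4 each held under 0.2 M reads, 1 read being worth 10.5, 10.4 and 10.3 normalized counts in them, and ZFR BT2 replicate 4 held 0.383 M. In these libraries a listed 0 allows up to 31.6, 31.3, 31.0 and 16.3 normalized counts (3 reads, counting error only). Hepatocyte markers were present throughout, Alb being the most abundant of them in every table. Sirt1 itself had 492.7 to 699 normalized counts in WT/Floxed livers and 535 to 617 in L-Sirt1 KO livers. A count over the whole gene also takes in transcript outside the deleted part, so it does not check the knockout label. As the tissue is bulk liver, fewer cells of a type and less RNA per cell cannot be told apart.

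In saline-treated WT/Floxed livers, the order of the members was set by level per length, as normalized counts per kilobase of annotated exon. Hlf stood highest at 337 ± 110 (SD, n = 5), followed by Cry1 at 293 ± 85.0 and Tef at 278 ± 118. Cry2 followed at 195 ± 27.9, Dbp at 113 ± 166 and Per1 at 100 ± 76.6. Per2 (32.4 ± 12.5), Per3 (14.3 ± 11.7), Ciart (6.97 ± 6.17) and Bhlhe41 (2.31 ± 1.91) made up the low end. Neighbours in this order overlapped in every case, but each of the 5 livers had more Hlf, Cry1, Tef and Cry2 per kilobase than any liver had of Per2, where the highest value was 50.3. In saline-treated L-Sirt1 KO livers Dbp led the order at 693 ± 1198 per kilobase (SD, n = 4), a mean carried by a single library.

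2 saline libraries stood apart from their groups. In L-Sirt1 KO saline replicate 3 Dbp was at 7449 normalized counts, against 217, 146 and 480 in replicates 1, 2 and 4 (the other 3 livers). The same liver held the lowest Cry1 (348) of its group and the highest value of every other member, Per1 (1796), Per2 (757), Per3 (1152), Cry2 (1895), Tef (7178), Hlf (3844), Ciart (240) and Bhlhe41 (31.2). Among core clock genes it had the lowest Arntl (382.5, against 1050 to 1490), Npas2 (102, against 345 to 608) and Nfil3 (958, against 2467 to 2848) of its group, and the highest Nr1d1 (7905) and Bhlhe40 (10123). In WT/Floxed saline replicate 5, a floxed mouse, Dbp reached 1200 and Per3 335.5, whereas Dbp in replicates 1 to 4 was at 335, 50.7, 47.8 and 63.7. Several of the differences that either liver moved are given with and without it.

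**Figure D1:**
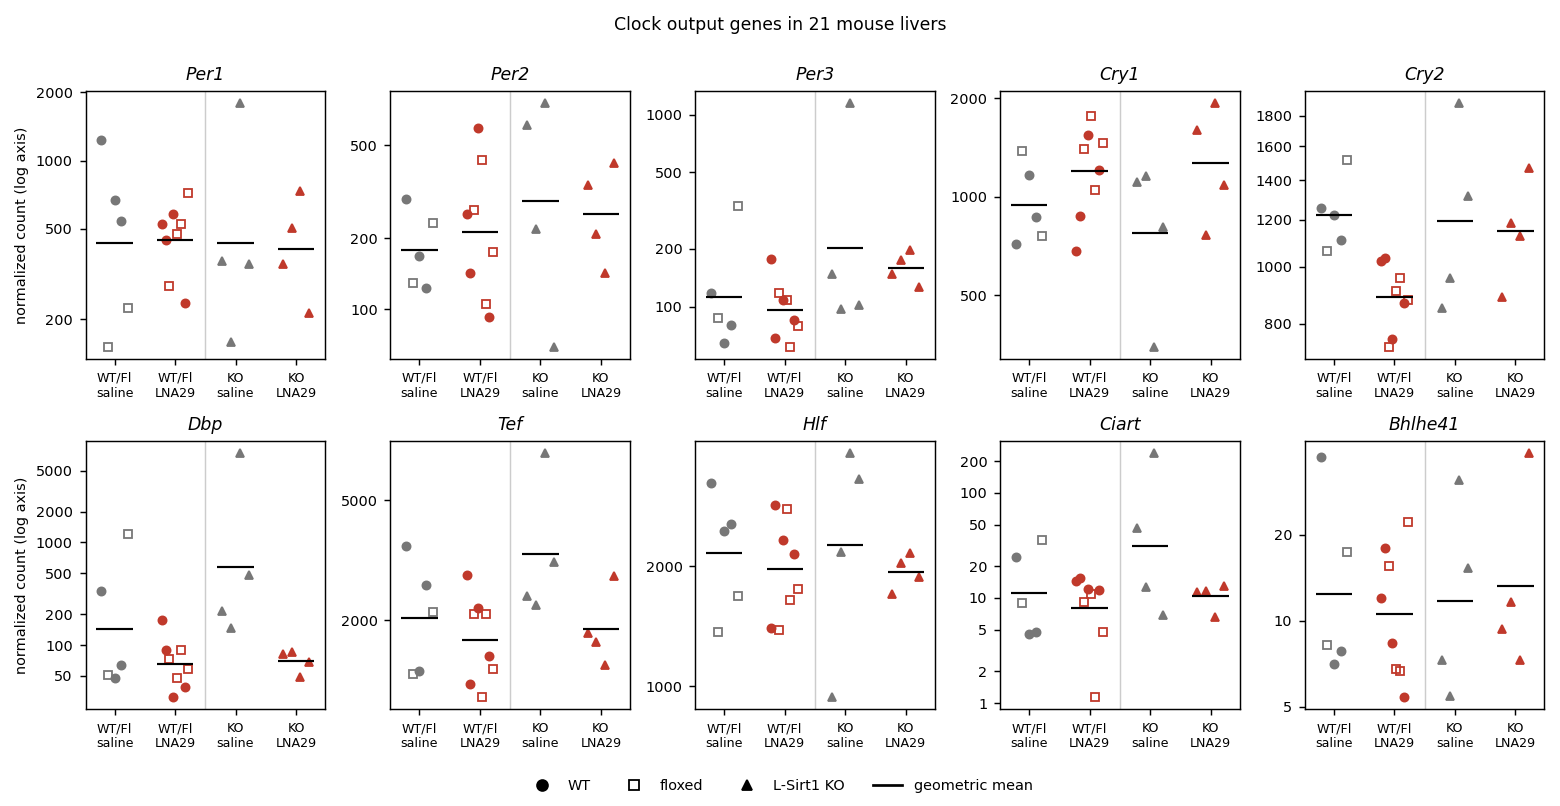
Normalized counts of the 10 clock output genes in 21 mouse livers (log axis), by genotype and treatment. Each point is a liver (circles WT, open squares floxed, triangles L-Sirt1 KO) and lines are geometric means. Cry2 separated the WT/Floxed groups, Dbp separated the L-Sirt1 KO groups, and a single L-Sirt1 KO saline liver (Dbp 7449) lay above all others for each gene but Cry1 and Bhlhe41.

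Because the inhibitor targets miR-29, the 3′ UTRs of the members were searched for the reverse complement of its seed. The 3 mature mouse miR-29 forms (RefSeq, GRCm38.p6) are shown because the family shares the seed, bases 2 to 8, in capitals.
miR-29a-3p: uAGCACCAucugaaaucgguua
miR-29b-3p: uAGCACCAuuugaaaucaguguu
miR-29c-3p: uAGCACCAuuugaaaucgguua
The 7-base match TGGTGCT was present in the annotated 3′ UTR (GRCm38) of 3 of the 10 members, against 13.1% of 21020 coding genes. Per3 held 3 matches, and Tef and Hlf held 1 each. The 5 sites are shown with the match in capitals, on the transcribed strand.
Per3, chr4:151005345-151005366 (minus strand): ttttgtacagcaTGGTGCTtct
Per3, chr4:151004814-151004835 (minus strand): cctctcactgtcTGGTGCTctg
Per3, chr4:151004097-151004118 (minus strand): ttgatttgaaaaTGGTGCTgta
Tef, chr15:81826299-81826320 (plus strand): tccctgctgtgaTGGTGCTgtg
Hlf, chr11:90337525-90337546 (minus strand): ctatagagggacTGGTGCTttg
None of the sites was followed by A, which would extend the match to the first position of the miRNA. A match of letters is a description and not a tested binding site. Dbp, Per1, Per2, Cry1, Cry2, Ciart and Bhlhe41 held no TGGTGCT in this annotation.

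The comparison of LNA29 with saline in WT/Floxed mice asked what inhibition of miR-29 does where Sirt1 is intact. Among the clock outputs Cry2, a repressor of the CLOCK and BMAL1 pair, fell. The other 9 did not pass the criteria, which were those of the study (p-value under 0.05, adjusted p-value under 0.2, mean above 50 and fold change above 1.2, tested here with limma). Thus 1 of 10 members passed and it was lower, where 4.35% of 15811 genes passed in either direction and 1.93% were lower. Ciart and Bhlhe41 had means under 50 and could not pass.

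Cry2 (chr2:92403646-92434043, minus strand, mm10) was at 1258, 1062, 1222, 1111 and 1515 normalized counts in the 5 saline livers. In the 8 LNA29 livers the lowest value was 731, the median 893 and the highest 1033. Every LNA29 liver thus lay below every saline liver, as was true of 0.569% of genes in this direction. Cry2 fell by 0.46 on the log2 scale (SE 0.107, adjusted p = 0.0476), and the exact two-sided permutation test gave p = 0.000777, the smallest that 8 against 5 livers allow. Within the 3 sequencing flow cells the log2 difference was -0.49, -0.33 and -0.57, the first resting on 1 saline liver. As the groups did not overlap, the direction could not differ between flow cells, so this is no further evidence. Without saline replicate 5, which held the highest Cry2, the change was -0.39 (adjusted p = 0.105) and still met the criteria. With replicate number as a block no member passed, Cry2 included, where 0.354% of genes did. Those numbers did not pair the animals. The annotation places D930015M05Rik on the opposite strand over 23417 bases of Cry2, and the strand setting of the counting is not stated, so reads of the pair cannot be told apart. The same limit holds for Dbp (737 bases shared with Sphk2), Tef (193 with Gm17597), Bhlhe41 (1876 with Gm43909) and Ciart, which lies wholly within the span of C920021L13Rik (3749 bases).

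Cry1, the other cryptochrome, was at 720, 1380, 1163, 866 and 760 in saline livers and between 685 and 1768 (median 1302) in LNA29 livers. The groups overlapped, and the difference of 0.34 on the log2 scale (SE 0.222, adjusted p = 0.573) did not pass. Among the Period genes, which encode the partners of the cryptochromes, Per1 spread from 151 to 1231 in saline livers and from 235 to 722 in LNA29 livers. Per2 was between 124 and 295 with saline and between 92.3 and 593 with LNA29. Per3 was between 64.3 and 118 in 4 saline livers and at 335.5 in replicate 5, against 61.6 to 177 with LNA29. None of the Period genes separated the groups, and their log2 differences (0.05, 0.25 and -0.23) were smaller than their SEs (0.424, 0.410 and 0.347). Per3 lies wholly within the annotated span of Camta1 on the same strand, so its counts carry that uncertainty.

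Dbp, the PAR bZip factor with the widest spread here, had a median of 65.6 in LNA29 livers (lowest 31.1, highest 177), against the saline values given above. The groups overlapped because replicates 2, 3 and 4 of the saline group lay among the LNA29 livers. The log2 difference of -1.12 (SE 0.688, adjusted p = 0.537) did not pass, and without saline replicate 5 it was -0.36 (adjusted p = 0.806). Tef was between 1327 and 3530 with saline and between 1108 and 2813 with LNA29, and Hlf was between 1368 and 3223 and between 1383 and 2848. Neither pair of groups separated (log2 differences -0.24 and -0.13). The repressors Ciart (4.53 to 36.0 with saline, 1.14 to 15.5 with LNA29) and Bhlhe41 (7.07 to 37.3 and 5.40 to 22.2) also overlapped. The median log2 difference of the 10 members was -0.23, beside 0.0017 for all genes tested, and -0.15 without saline replicate 5. Without that liver the signs of Per1 and Per3 turned (-0.19 and 0.16) and Ciart was at -0.0073, none of them passing.

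Of 9 core clock genes only Nfil3, a repressor that competes with the PAR bZip factors for D-boxes, passed (log2 fold change 0.36, SE 0.104, adjusted p = 0.124), and it no longer did so without saline replicate 5 (0.32, adjusted p = 0.227). None of 10 genes of Period and cryptochrome turnover (kinases, ubiquitin ligases and the like) passed, nor did any of 13 clock-controlled and PAR bZip target genes. Of 8 glucocorticoid response genes Tat, a tyrosine-degrading enzyme, fell by 0.48 (adjusted p = 0.0993), and of 9 fasting response genes Fgf21, a hormone of the fasted liver, rose by 1.90 (adjusted p = 0.171). Among cell type markers, the hepatocyte gene Apoa1 rose by 0.51 (1 of 7 tested) and the endothelial gene Lyve1 fell by 0.51 (1 of 6). None of the 5 tested pancreatic acinar genes passed, although all 5 were lower with LNA29 (median log2 difference -1.57). Their summed level was 21.7 to 1124 in saline livers and 43.9 to 290 in LNA29 livers, with Cela2a the most abundant and Prss1 at 0 in every library. The 8 Kupffer cell genes summed to a median of 14237 with LNA29 and 21291 with saline, and none passed. The part of these markers in the change of Cry2 was not tested.

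In L-Sirt1 KO mice the same treatment was compared with saline to ask which effects persist without hepatic Sirt1. Dbp was lower in all 4 LNA29 livers than in any saline liver, yet no member passed the criteria. The count was 0 of 10, where 1.87% of 15885 genes passed (0.485% to 2.68% with 1 library left out). Ciart and Bhlhe41 again had means under 50 and could not pass. An unadjusted p-value under 0.05 was found for 2 of 10 members (Dbp and Tef), where 11.2% of genes had one. The median log2 difference of the members was -0.20, beside -0.0027 for all genes, but 0.22 without saline replicate 3, so that this liver set its sign.

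Dbp was at 81.4, 86.6, 48.5 and 68.35 normalized counts with LNA29, against 217, 146, 7449 and 480 with saline. The groups did not overlap, as was true of 3.3% of genes in this direction, and the exact permutation test gave p = 0.0286, the smallest that 4 against 4 livers allow. The log2 difference was -3.04 (SE 1.02, adjusted p = 0.302). Without saline replicate 3 it was -1.82 (SE 0.382, adjusted p = 0.127), a smaller change with a smaller error, and Dbp then passed as the only member, where 1.54% of genes did.

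Tef, which binds the same elements as Dbp, was at 1815, 1685, 1416 and 2790 with LNA29 and at 2407, 2240, 7178 and 3110 with saline. LNA29 replicate 4 lay among the saline livers, and the difference of -0.83 (SE 0.351, adjusted p = 0.421) shrank to -0.46 without saline replicate 3. Hlf, the third PAR bZip factor, was between 1703 and 2154 with LNA29 and between 939 and 3844 with saline (log2 difference -0.22, adjusted p = 0.858, and 0.033 without saline replicate 3). Ciart, which represses the CLOCK and BMAL1 pair, was at 11.4, 11.7, 6.61 and 12.96 with LNA29 and at 46.1, 12.7, 240 and 6.86 with saline. The groups overlapped, saline replicates 2 and 4 lying within the LNA29 range (log2 difference -1.55, SE 0.904, adjusted p = 0.571), and without saline replicate 3 the difference was -0.59 (adjusted p = 0.763). Bhlhe41 was between 7.29 and 38.6 with LNA29 and between 5.46 and 31.2 with saline, fully overlapping.

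Among the Period genes, Per3 showed how far 1 liver set the sign. It was at 148, 175, 198 and 127 with LNA29 and at 148, 96.9, 1152 and 102 with saline. The log2 difference was -0.35 with all livers and 0.49 without saline replicate 3, and neither passed (adjusted p = 0.882 and 0.453). Per1 likewise went from -0.09 to 0.59, and Per2 from -0.18 to 0.28. Cry1 was at 1602, 764, 1936 and 1088 with LNA29 and at 1107, 1160, 348 and 809 with saline (0.71, adjusted p = 0.558, and 0.32 without saline replicate 3). Cry2 was at 887, 1186, 1127 and 1471 with LNA29 and at 850, 957, 1895 and 1317 with saline. The Cry2 groups overlapped throughout, with a log2 difference of -0.05 (SE 0.246, adjusted p = 0.951), or 0.17 without saline replicate 3.

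In the same livers 8 of 9 core clock genes had an unadjusted p-value under 0.05, beside 11.2% of all genes, though none passed the criteria. Arntl was at 1949, 1625, 1762 and 1781 with LNA29 and at 1423, 1490, 382.5 and 1050 with saline, and Npas2 was at 1137, 670, 1047 and 1022 against 608, 577, 102 and 345. For both genes, which were picked out after their values were seen, every LNA29 liver was above every saline liver, as was true of 3.65% of genes. The log2 difference was 0.89 (adjusted p = 0.410) for Arntl and 1.51 (adjusted p = 0.293) for Npas2. Without saline replicate 3 these differences were 0.44 (adjusted p = 0.290) and 0.94 (adjusted p = 0.207). With that liver left out, 6 of the 9 had an unadjusted p-value under 0.05, where 11.2% of genes did. Nfil3 was among those that passed (0.52, adjusted p = 0.184), where 1.54% of genes did. None of 10 turnover genes and none of 13 clock-controlled target genes passed. Of 9 fasting response genes 2 passed, the gluconeogenic enzyme gene G6pc (0.75, adjusted p = 0.0538) and Igfbp1, an IGF-binding protein (1.19, adjusted p = 0.0603). The Kupffer cell genes Clec4f (-0.29) and Vsig4 (-0.54) and the endothelial gene Lyve1 (-1.17) were lower with LNA29 and passed, as 2 of 8 and 1 of 6 tested markers of these cells. The other 5 endothelial genes lay between -0.07 and 0.08. The 8 Kupffer cell genes summed to 13057 to 16402 with LNA29 and to 16244 to 19527 with saline. Their part in the Dbp difference was not tested.

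Whether the response to LNA29 differed between the genotypes was tested as an interaction over 15601 genes, at an adjusted p-value under 0.2. No member passed, where 0.0449% of genes did (0% to 1.49% with 1 library left out). None of the 10 had an unadjusted p-value under 0.05, where 9.14% of genes did. The response of Dbp differed by -1.92 (SE 1.28, adjusted p = 0.687) and that of Cry2 by 0.41 (SE 0.251, adjusted p = 0.652), L-Sirt1 KO minus WT/Floxed. Without L-Sirt1 KO saline replicate 3 these were -0.70 and 0.63 (adjusted p = 0.880 and 0.280). The passing of Cry2 in WT/Floxed mice alone is therefore not shown to be a difference between genotypes. Within the WT/Floxed table, floxed mice were also compared with WT mice with the treatment as a covariate. Here 1 member passed and it was lower, Hlf, where 14.7% of genes passed and 7.48% were lower. Hlf was at 1368 and 1684 in floxed and at 3223, 2444 and 2546 in WT livers given saline, a clear gap. With LNA29 the floxed livers (1383 to 2775) and the WT livers (1398 to 2848) overlapped almost fully. The log2 difference was -0.45 (SE 0.191, adjusted p = 0.164), and it was lost under several alternatives. In the same contrast 6 of 9 fasting response genes fell, among them Angptl4 (-1.93, adjusted p = 0.0223) and Pck1 (-1.08, adjusted p = 0.0846), as did 3 of 8 glucocorticoid response genes. All 5 acinar genes were lower in floxed livers (median log2 difference -3.46), 1 of them, Cela2a, passing (-1.26). The part of these in the Hlf difference was not tested.

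The comparison of ZFR with ZLR asked how the obese liver differs from the lean one. Dbp, Per3, Per2 and Tef were higher in ZFR, each without overlap, while Per1 did not pass (log2 difference -0.01, or 0.38 without the shallow ZLR replicates 3 and 4). Of 8 members above the minimum mean of 10 normalized counts, 4 passed an adjusted p-value under 0.05 and all 4 were higher, where 4.25% of 8633 genes passed and 1.8% were higher. With no minimum mean, and also without ZFR replicate 2, 3 or 4, the count was 2, Dbp and Per2 passing while Per3 (adjusted p = 0.0572 to 0.0974) and Tef (adjusted p = 0.0626 to 0.0772) did not. Per3 also missed the threshold without ZFR replicate 1 (adjusted p = 0.0641), and Tef without ZLR replicate 1 (adjusted p = 0.0525). The groups of 5 members did not overlap, against 7.8% of genes in this direction. The median log2 difference of the 8 was 1.45, beside 0.07 for all genes.

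Dbp was at 109, 265, 272 and 181 normalized counts in ZFR and at 4.55, 28.0, 7.37 and 0 in ZLR. The lowest fatty rat lay above both the highest lean rat and the 31.3 counts that the listed 0 allows. The log2 fold change was 5.01 (SE 0.846, adjusted p = 0.00922), and 3.94 (adjusted p = 0.00682) without the shallow ZLR replicates 3 and 4. Tef was at 115, 150, 164 and 137 in ZFR and at 53.4, 73.6, 85.5 and 40.5 in ZLR. It rose by 1.19 (SE 0.237, adjusted p = 0.0207), with no fatty rat inside the lean range, and by 1.15 without the shallow libraries. Hlf was nearly level in ZFR (21.6, 21.2, 20.9 and 20.2) and lower in ZLR (14.6, 10.3, 0 and 10.4). The ranges did not overlap, but the listed 0 allows up to 31.6 counts, and the difference of 1.71 did not pass (SE 0.823, adjusted p = 0.339). It was 0.80 (adjusted p = 0.156) without ZLR replicate 3, the library with the listed 0, and 0.73 (adjusted p = 0.129) without both shallow libraries.

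Per2 was at 88.0, 88.2, 81.5 and 77.8 in ZFR and at 12.8, 28.2, 10.5 and 31.3 in ZLR. The 4 fatty rats were close together and well above the lean rats (log2 fold change 2.11, SE 0.339, adjusted p = 0.00753). Per3 was at 43.4, 114, 43.1 and 36.4 in ZFR and at 4.20, 9.67, 0 and 0 in ZLR. Its log2 fold change of 4.30 (SE 0.835, adjusted p = 0.0186) was 2.85 (adjusted p = 0.00901) without the shallow replicates, and replicate 2 carried the highest fatty value. Per1 was at 54.2, 70.6, 79.4 and 51.3 in ZFR and at 45.5, 50.7, 94.8 and 73.1 in ZLR, and these overlapped (log2 difference -0.01, SE 0.259, adjusted p = 0.989). The overlap rested on the shallow lean replicates 3 and 4, the other lean rats lying below all 4 fatty rats, and without them the difference was 0.38 (adjusted p = 0.376). For Dbp, Per2, Per3 and Tef the exact permutation test gave p = 0.0286 each, the smallest that 4 against 4 rats allow. Within the 2 flow cells the log2 differences were 3.75 and 6.27 for Dbp and 2.15 and 2.06 for Per2. The lean side of the second value in each pair was the shallow replicates 3 and 4. As the groups of these 4 members did not overlap, their direction could not differ between flow cells, so this is no further evidence.

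The cryptochromes did not pass with all rats. Cry2 was at 56.96, 45.9, 62.7 and 63.8 in ZFR and at 33.6, 29.6, 31.6 and 52.2 in ZLR, so that a single lean rat, ZLR replicate 4, reached into the fatty range. The difference of 0.65 (SE 0.225, adjusted p = 0.169) became 0.83 (adjusted p = 0.0328) without the shallow libraries, when 5 members passed and 5.86% of genes did. Cry1 was at 26.3, 24.7, 18.8 and 26.4 in ZFR and at 19.5, 16.6, 10.5 and 10.4 in ZLR (0.75, adjusted p = 0.280), and a read or so in the shallow lean libraries makes up the whole value. Ciart and Bhlhe41 were under the minimum mean. Ciart was at 2.35, 8.24, 0 and 3.11 in ZFR and at 0.268, 0.389, 0 and 0 in ZLR, and Bhlhe41 was under 0.5 in every rat of this pair, both too low to compare.

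**Figure D2:**
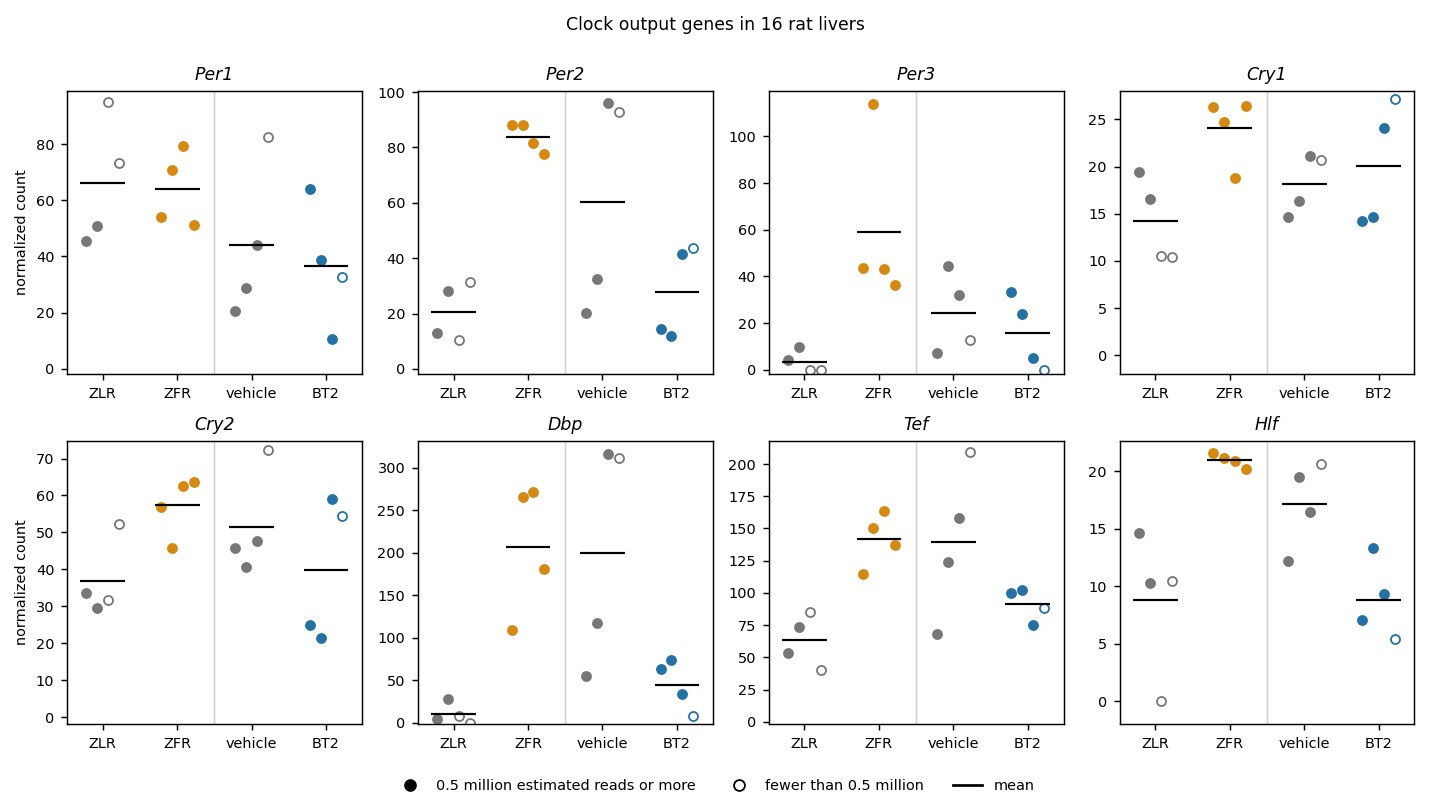
Normalized counts of the 8 clock output genes above the minimum mean in 16 rat livers. Each point is a liver, open points are libraries under 0.5 M estimated reads and lines are means. Each ZFR point lies above every ZLR point for Per2, Per3, Dbp, Tef and Hlf, and the vehicle and BT2 groups overlap in all 8 panels.

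Of 8 core clock genes tested, 2 passed and both were lower in ZFR. These were the activators Arntl (24.5, 8.24, 4.18 and 12.4 in ZFR, 60.8, 43.4, 63.2 and 83.5 in ZLR) and Npas2 (2.45, 0, 2.09 and 7.78, against 37.9, 28.0, 31.6 and 62.7). Neither overlapped between the groups, as was true of 6.68% of genes in this direction (log2 fold change -2.46, adjusted p = 0.0155, and -3.65, adjusted p = 0.0165). Both passed without the shallow libraries as well (adjusted p = 0.0497 and 0.0433). None of the 9 tested turnover genes passed. Of 8 tested clock-controlled target genes 2 passed, Cyp7a1, the rate-limiting enzyme of bile acid synthesis (1.34, adjusted p = 0.00777), and Nr1i3, a xenobiotic receptor (-1.63, adjusted p = 0.0465). Klf9, a glucocorticoid-responsive factor, fell by 0.75 (adjusted p = 0.0343, 1 of 7 tested), and none of 8 fasting response genes passed. Among hepatocyte markers 1 of 8 rose (Tf) and 4 fell (Apob, Cps1, Fgb and Ttr), the changes being between -0.58 and 0.44, and their summed level had a median of 300691 in ZFR and 304737 in ZLR. Of 5 endothelial genes Stab2 rose by 1.16. The part of these markers in the differences of the clock outputs was not tested.

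BT2, an inhibitor of the kinase of the branched-chain ketoacid dehydrogenase, was compared with vehicle in younger ZFR. The log2 difference was below 0 for 7 of the 8 members above the minimum mean, all but Cry1, and none passed. The count was 0 of 8, as it was 0 of 8405 for all genes (0%), while 1 member (Dbp) had an unadjusted p-value under 0.05, where 3.95% of genes did. No member separated the groups, whereas 1.44% of genes were without overlap and lower. The median log2 difference of the 8 was -0.72, beside 0.0061 for all genes, and -0.45 without the shallow libraries, where Per1 was at 0.021.

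The livers of this experiment were sequenced on the flow cells labelled HK2NYBGX5 (replicates 1 and 2 of each group) and HJY3CBGX5 (replicates 3 and 4), and the vehicle livers differed between them. Dbp was at 55.2 and 117 in the vehicle livers of the former and at 316 and 311 in those of the latter, against 62.8 and 73.2, and 34.1 and 7.60, with BT2. The log2 difference was -2.21 over all livers (SE 0.711, adjusted p = 0.898, exact permutation p = 0.0857), but -0.24 within the former flow cell and -4.18 within the latter. Per2 was at 20.1, 32.5, 96.3 and 92.9 with vehicle and at 14.2, 12.01, 41.5 and 43.5 with BT2. Here the vehicle livers lay above the BT2 livers within each flow cell (log2 difference -0.92 and -1.14), although the pooled ranges overlapped and the difference of -1.03 did not pass (SE 0.577, adjusted p = 0.898).

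Tef was at 67.9, 124, 158 and 210 with vehicle and at 100, 102, 75.2 and 88.3 with BT2. Its difference was 0.14 within the former flow cell and -1.15 within the latter, which turned the direction (pooled -0.51, adjusted p = 0.898). Hlf was at 12.2, 19.5, 16.5 and 20.6 with vehicle and at 7.12, 13.3, 9.37 and 5.44 with BT2, with BT2 replicate 2 inside the vehicle range. Its difference was -0.61 and -1.25 within the flow cells (pooled -0.93, SE 0.451, adjusted p = 0.898). Per3 (7.36, 44.3, 32.2 and 12.7, against 33.4, 24.0, 5.03 and 0) and Per1 (20.7, 28.7, 44.0 and 82.6, against 64.1, 38.7, 10.7 and 32.6) changed sign between flow cells. Cry2 (45.7, 40.7, 47.7 and 72.3, against 24.9, 21.4, 58.9 and 54.4) and Cry1 (14.6 to 21.1, against 14.2 to 27.2) overlapped in the pooled ranges. Within the former and the latter flow cell the difference of Cry2 was -0.88, without overlap, and -0.05. That of Cry1 was -0.09 and 0.28, so its sign changed as well. Ciart was listed at 0 in all 4 BT2 livers and at 1.22, 1.34, 4.58 and 0 with vehicle. In the BT2 libraries a listed 0 allows up to 10.7, 4.00, 4.02 and 16.3 normalized counts, so Ciart was too low to compare. Without vehicle replicate 4 and BT2 replicate 4, the shallow libraries, Dbp was at -1.22 (adjusted p = 0.996) and again no member passed.

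None of the 8 core clock, 9 turnover, 8 clock-controlled, 7 glucocorticoid and 8 fasting response genes tested passed with BT2, and no cell type marker did. Arntl, named after its values were seen, was at 64.1, 42.7, 58.9 and 48.9 with BT2 and at 37.8, 28.0, 2.75 and 31.0 with vehicle. Each BT2 liver was above each vehicle liver (log2 difference 1.495, SE 0.632, adjusted p = 0.898), as was true of 1.52% of genes in this direction. Vehicle replicates 3 and 4 held only 3 estimated reads of Arntl each.

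**Figure D3:**
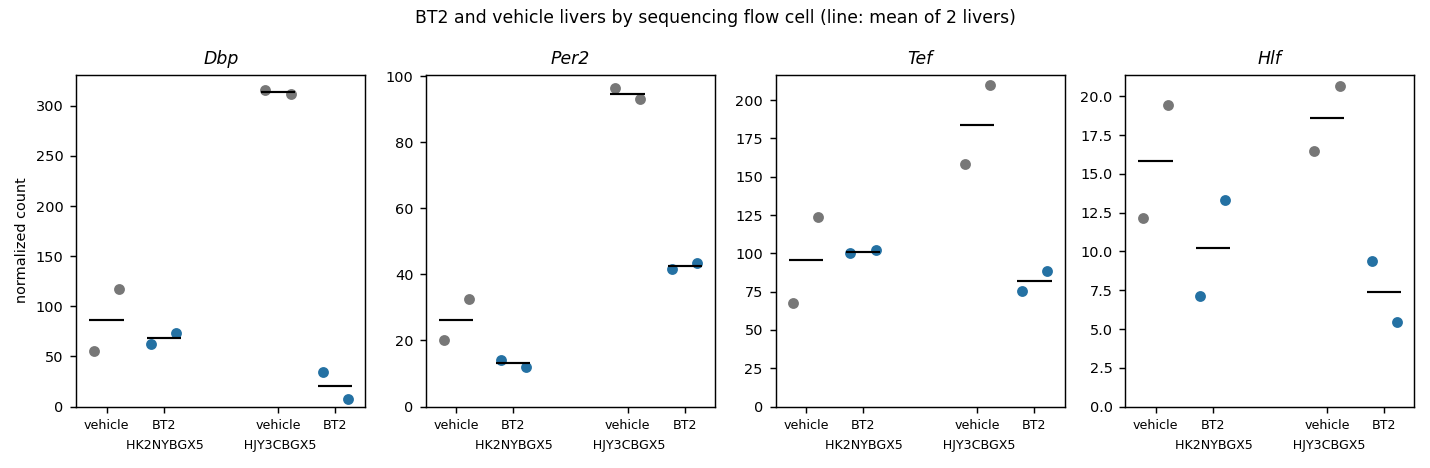
Normalized counts of Dbp, Per2, Tef and Hlf in livers of vehicle-treated (grey) and BT2-treated (blue) ZFR, split by the flow cell named in the labels. Points are livers (n = 2 per flow cell and treatment) and lines are means. Dbp, Tef and Hlf part between the treatments on HJY3CBGX5 and overlap on HK2NYBGX5, and Per2 parts on both.

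**Figure D4:**
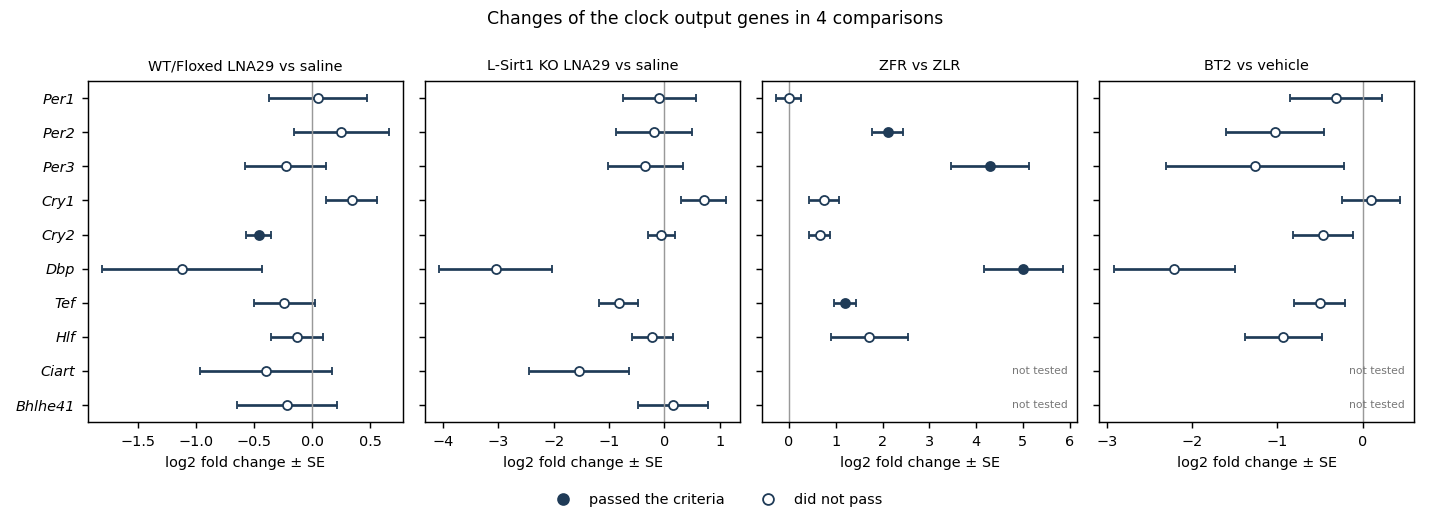
Log2 fold changes of the 10 clock output genes in the 4 comparisons, with SE from limma and a separate scale in each panel. Filled points passed the criteria of that comparison: Cry2 in WT/Floxed mice and Per2, Per3, Dbp and Tef in ZFR against ZLR.

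To see which members varied together between animals of the same group, log2 values were taken as deviations from the mean of each group (in WT/Floxed mice, of each treatment and background) and related to those of Dbp over 21 mouse livers. P-values are from 100000 permutations within these groups and were adjusted over 15600 genes. Cry1 ran against Dbp with a Pearson's r of -0.85 (p = 1e-05, the smallest these permutations can give, adjusted p = 0.0446) and a Spearman's rho of -0.87 (adjusted p = 0.0780). Without the 2 livers farthest from the median of Dbp, which were those that stood apart above, r was -0.77. These livers were left out after the deviations were taken, so they still entered the means of their groups. This holds for every r given here and below without 2 livers, in mice and in rats, and none is free of them. The other 8 members had a positive r, and none reached an adjusted p-value under 0.05. Per3 (r = 0.83, rho = 0.59, adjusted p = 0.237 for r), Cry2 (0.75 and 0.74, adjusted p = 0.158) and Tef (0.74 and 0.65, adjusted p = 0.145) were the highest of them. Their r was 0.64, 0.57 and 0.62 without these 2 livers. Ciart (0.69), Bhlhe41 (0.67) and Per1 (0.67) followed, and Hlf (0.38) and Per2 (0.30) were lowest, falling to 0.15 and 0.06 without the 2 livers. Over 16 rat livers (8098 genes), Tef (r = 0.74, rho = 0.83, permutation p = 0.00254) and Per3 (r = 0.72, rho = 0.57, permutation p = 0.0111) were the highest, with adjusted p = 0.824 for both. Their r was 0.78 and 0.56 without ZLR replicate 4 and ZFR BT2 replicate 4. The mouse pattern was not seen for the cryptochromes in rats, where Cry1 had r = 0.03 (rho = -0.09) and Cry2 had r = -0.49 (adjusted p = 0.852). Per1 (0.27), Hlf (0.04) and Per2 (-0.02) were the remaining rat members.

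Outside the members, among 12751 genes with a mean above 50 in both mouse tables, the patterns most like that of Dbp included those of Jade1 (r = 0.90), Mpzl2 (0.89), Tbc1d10a (0.84) and Klf13 (0.83). At the other end, looked up after the values were seen, Arntl and Npas2 both had r = -0.92, or -0.89 for each without the 2 livers. In the livers themselves, the 4 with the most Dbp were also the 4 with the least Arntl, namely L-Sirt1 KO saline replicates 3 and 4 (Arntl 382.5 and 1050) and WT/Floxed saline replicates 5 and 1 (1190 and 956). All 4 were saline livers. The next lowest Arntl was 1390, in WT/Floxed LNA29 replicate 1.

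**Figure D5:**
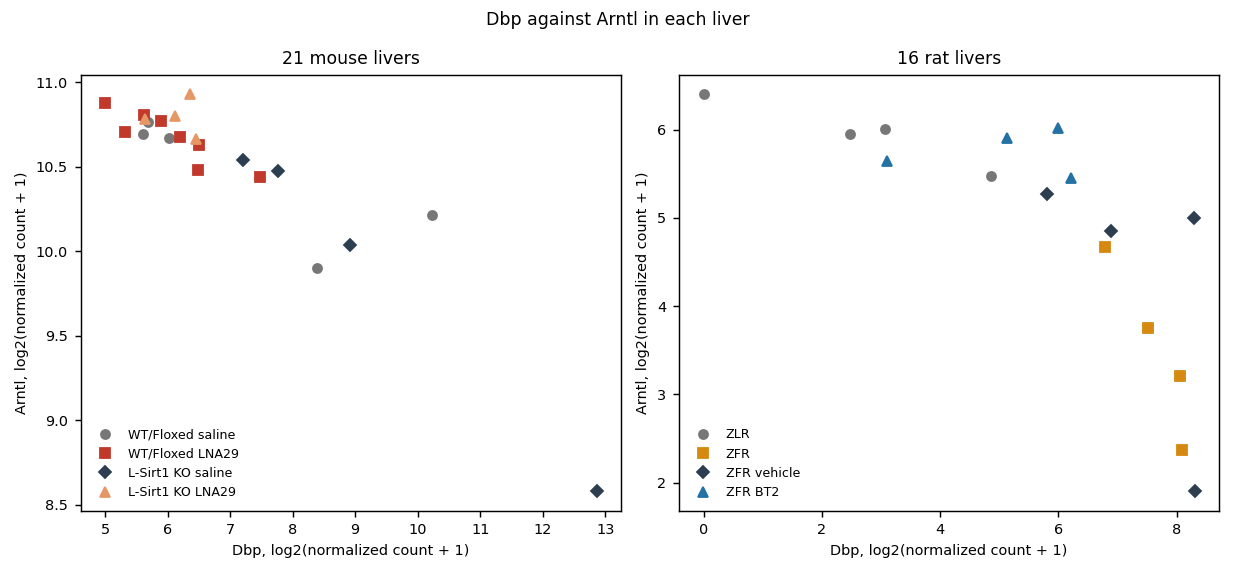
Dbp against Arntl in each liver, as log2(normalized count + 1), for 21 mouse livers (left) and 16 rat livers (right), coloured by group. Mouse livers with more Dbp had less Arntl, the farthest point being L-Sirt1 KO saline replicate 3 (Dbp 7449, Arntl 382.5). In rats the ZLR livers lay at the upper left and the ZFR livers at the lower right. Dbp was 7.60 to 73.2 in BT2 livers and 55.2 to 316 in vehicle livers, with Arntl at 42.7 to 64.1 and at 2.75 to 37.8.

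As Period, cryptochrome and PAR bZip genes are known targets of E-box and D-box factors, the letters of these elements were searched on both strands in promoter windows from 250 bases before to 50 bases after the start (RefSeq, GRCm38.p6), which were found for 9 of the 10 members, Per2 being the other. The E-box CACGTG was in the window of 5 members (Per1, Cry1, Tef, Ciart and Bhlhe41), against 8.09% of 27025 genes. The related CACGTT was in those of Cry1 and Cry2, against 5.44%. The D-box, as TTATGTAA or TTACGTAA, was in that of Per3, against 1.23%. No window of Dbp or Hlf held any of these letters, which says nothing of elements elsewhere in these genes. The windows of Ciart with 3 E-boxes, Cry1 with both kinds and Per3 with 2 D-boxes are shown up to the start, with matches in capitals (AACGTG is CACGTT on the other strand).
Ciart, chr3:95882229-95882478 (minus strand): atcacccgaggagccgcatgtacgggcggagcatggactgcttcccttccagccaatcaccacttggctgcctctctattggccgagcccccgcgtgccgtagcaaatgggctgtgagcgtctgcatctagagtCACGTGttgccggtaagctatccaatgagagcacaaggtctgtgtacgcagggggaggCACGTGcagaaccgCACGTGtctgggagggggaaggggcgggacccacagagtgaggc
Cry1, chr10:85185055-85185304 (minus strand): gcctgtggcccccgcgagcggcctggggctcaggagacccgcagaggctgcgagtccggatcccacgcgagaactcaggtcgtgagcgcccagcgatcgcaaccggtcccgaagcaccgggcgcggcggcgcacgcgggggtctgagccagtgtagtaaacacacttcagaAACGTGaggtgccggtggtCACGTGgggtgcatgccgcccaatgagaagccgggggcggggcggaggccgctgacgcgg
Per3, chr4:151044666-151044915 (minus strand): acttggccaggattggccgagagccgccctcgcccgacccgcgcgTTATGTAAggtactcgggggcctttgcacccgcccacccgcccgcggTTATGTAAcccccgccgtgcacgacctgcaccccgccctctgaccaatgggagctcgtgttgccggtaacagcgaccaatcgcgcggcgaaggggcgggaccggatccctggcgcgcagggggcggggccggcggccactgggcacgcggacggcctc
The E-boxes of Ciart began 116, 58 and 44 bases before the start, the E-box of Cry1 60 bases and its CACGTT 79 bases before it, and the D-boxes of Per3 205 and 158 bases before it. These are matches of letters, and binding was not measured.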

How the data were processed

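The authors aligned single-end RNA-seq reads with STAR (mm10 or rn6), quantified them with Salmon and divided the estimated counts by DESeq2 factors, per the labels and the study's methods. The deposited values are this signal, in 4 separately normalized tables. Whole reads were not recovered: 69.3% to 75.8% of low values in mouse libraries and 74.3% to 90.3% in rat libraries were multiples of 1 read within 0.01, so no count model was run. Depth was the sum divided by the modal value above 0.

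Entries without a gene name (381 mouse, 201 rat) or with a repeated name (130 and 4523) were left out. Genes with a mean of at least 10 were tested with limma 3.58.1 (R 4.3.3; lmFit, eBayes with trend) on log2(normalized count + 1), which understates changes of low genes, with Benjamini-Hochberg adjustment over all genes tested. Single members were also tested by two-sided exact permutation. Replicates are separate animals. Each result was recomputed without a minimum mean, with a pseudocount of 10, TMM scaling, quality or precision weights, flow cell, background or replicate number in the model, an adjusted p under 0.05 in mice, and each library left out. Leaving out libraries under 0.5 M reads was added after the data were seen. The members and gene lists were chosen with earlier results of these data known. All members were named, and of other lists the genes that passed, apart from some results that are not reported here. Correlation p-values were adjusted over all genes instead of the 9 other members as first planned. Sequence searches used Python 3.11.15 with numpy 2.4.6, and the mouse annotation was GENCODE on GRCm38, the files' build mm10.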

Additional observations from a re-analysis of the deposited data

Results flagged for a closer look

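Of 79 sets of values (a member in a group), 12 held a liver far from the others of its group. Chance flags about 1 in 20 only if values are normally distributed, and its rate was not measured for these counts. In L-Sirt1 KO saline replicate 3 these were Per1 (1796), Per3 (1152), Dbp (7449) and Ciart (240.2), all highest. WT/Floxed saline replicate 5 was highest for Dbp (1200) and Per3 (335.5), and WT/Floxed LNA29 replicate 1 for Dbp (177.2). L-Sirt1 KO LNA29 replicate 4 was highest for Bhlhe41 (38.64) and ZFR replicate 2 for Per3 (113.9). In rats Bhlhe41 was above 0 in only 1 library of 3 groups, and such a set is flagged whatever the value. The values were 0.4505 in ZFR replicate 1, 1.335 in ZFR BT2 replicate 2 and 0.2239 in ZFR vehicle replicate 2. These are 14 estimated reads in ZFR replicate 1 and 1 in each of the others.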

How the results depend on the processing

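The number of members that passed in WT/Floxed mice stayed at 1 with each library left out and was 0 with the replicate block, where Cry2 was at -0.47 (adjusted p = 0.486) and 0.354% of all genes passed. In L-Sirt1 KO mice it was 0 to 1 with a library left out and 1 with sample quality weights (Dbp, -2.91, adjusted p = 0.171, where 5.06% of genes passed). For ZFR against ZLR it was 2 with no minimum mean (1.3% of genes), 7 with precision weights (25.1% of genes), and 2 to 5 with a library left out (2.6% to 4.4% of genes), being 2 without ZFR replicate 2, 3 or 4. For BT2 it was 0 under every alternative run. For floxed against WT mice it was 0 with no minimum mean, with the replicate block and with an adjusted p-value under 0.05, and 0 to 2 with a library left out.

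Replicate numbers did not pair the mice: 2 of 5 correlations of same-numbered livers exceeded 0.1 in WT/Floxed and 1 of 4 in L-Sirt1 KO mice. It was 2 of 4 for ZFR against ZLR and 3 of 4 for BT2. For BT2, replicates 2, 3 and 4 each matched their own number best (0.282, 0.135 and 0.117), so pairing of the rats was not settled. Apart from the counts given above, the block moved none.

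Signs of differences that did not pass turned as follows. Per1 was -0.37 with quality weights and -0.0475 with flow cell in WT/Floxed mice, where Ciart was 0.085 with the replicate block. In L-Sirt1 KO mice Per1 was 0.022 and Per2 0.43 with quality weights, and Cry2 was 0.13 and Hlf 0.018 with flow cell. For ZFR against ZLR Per1 was 0.0029 with TMM scaling, 0.20 with quality weights, 0.24 with precision weights and 0.38 without the shallow libraries. For BT2 Per1 was 0.26 with quality weights and 0.021 without the shallow libraries.

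With a library left out, WT/Floxed Per1 ranged from -0.33 to 0.43, Per3 from -0.43 to 0.16, Hlf from -0.30 to 0.0125 and Bhlhe41 from -0.41 to 0.15. In L-Sirt1 KO mice Per1 ranged from -0.58 to 0.59, Per2 from -0.87 to 0.28, Per3 from -0.70 to 0.49, Cry2 from -0.22 to 0.17, Hlf from -0.64 to 0.033 and Bhlhe41 from -0.33 to 0.59. Per1 ranged from -0.17 to 0.18 for ZFR against ZLR and from -0.66 to 0.17 for BT2, where Cry1 ranged from -0.062 to 0.23. The cause was not tested for any of these, apart from the library removed. In the rats, depth limits every member: where 1 read is worth over 10 counts, a value of 10 is a single read.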
